A study of Rattus norvegicus with 24 samples.

Results

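The growth hormone and IGF axis was examined as 10 genes: Igf1, Igfals, Igfbp1, Igfbp2, Igfbp3, Igfbp4, Ghr, Socs2, Cish and Stat5b. They were listed by name, with earlier results of these data known. All 10 had a probe set (a group of array probes for 1 transcript), 15 probe sets in all, out of 14201 genes and 30980 probe sets on the array, and a gene with several was read from the one of highest mean over the 24 arrays. The samples were liver and spleen of 12 male wild-type Sprague-Dawley rats, 46 to 49 days old, given vehicle or cyclophosphamide by mouth at 40 mg/kg/day for 5 days. In each treatment, 3 rats had wood sticks in the cage and 3 had none. That gave 4 groups of 3 rats per organ, with 1 Affymetrix Rat 230 2.0 array per organ and rat. Cyclophosphamide is an alkylating drug whose metabolites crosslink DNA and kill dividing cells. The series asks how wood enrichment bears on the drug response of the 2 organs.

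Growth hormone from the pituitary binds its receptor, Ghr, and the kinase Jak2 then activates the transcription factor Stat5b. In liver this drives Igf1, the growth factor that circulates in a complex with a binding protein such as Igfbp3 and the acid-labile subunit Igfals, and it induces Socs2 and Cish, which damp the signal. Igfbp1 is induced in fasting and repressed by insulin, Igfbp2 likewise rises when food is scarce, and Igfbp4 binds IGF in tissues. Spleen makes Igf1 locally, mainly in macrophages and stroma.

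The promoter of Cish is shown because this gene had the largest wood difference of the 10 in livers of vehicle rats, and those of Igf1 and Igfbp1 for comparison with it. That difference did not reach an adjusted p under 0.05 (limma, adjusted p = 0.452), in a contrast where 0 of 12683 tested genes did. Each sequence is the 250 bases before the annotated start of the gene (RefSeq, build GRCr8), 5′ to 3′ on the gene's strand, which is the plus strand in all 3 genes. The letters TTCNNNGAA, the site that STAT factors bind, and CAAAACA, the core of the insulin response element through which FOXO factors act, are in capitals where a search of both strands found them. Promoters were found for 9 of the 10 genes.
Cish, chr8:116850719-116850968: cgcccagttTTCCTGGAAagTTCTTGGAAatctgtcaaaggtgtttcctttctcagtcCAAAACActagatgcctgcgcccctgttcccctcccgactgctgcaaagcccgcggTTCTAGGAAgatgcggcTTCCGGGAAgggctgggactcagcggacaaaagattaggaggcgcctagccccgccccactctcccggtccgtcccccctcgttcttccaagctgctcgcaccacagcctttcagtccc
Igf1, chr7:24172282-24172531: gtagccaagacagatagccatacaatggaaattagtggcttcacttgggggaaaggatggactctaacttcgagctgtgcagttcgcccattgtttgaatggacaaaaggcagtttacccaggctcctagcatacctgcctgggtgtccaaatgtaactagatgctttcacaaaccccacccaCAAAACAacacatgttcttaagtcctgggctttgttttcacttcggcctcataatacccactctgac
Igfbp1, chr14:86261027-86261276: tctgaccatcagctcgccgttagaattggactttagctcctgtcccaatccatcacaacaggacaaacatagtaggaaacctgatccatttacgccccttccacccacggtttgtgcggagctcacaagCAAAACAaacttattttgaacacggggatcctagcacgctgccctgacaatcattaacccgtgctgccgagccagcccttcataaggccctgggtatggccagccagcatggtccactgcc
The Cish window held 4 matches to TTCNNNGAA, in the order TTCCTGGAA, TTCTTGGAA, TTCTAGGAA and TTCCGGGAA. Such a match was found in 2566 of 33469 promoter windows of this length (7.67%), at least 2 matches in 140 (0.418%) and 4 or more in 2. None of the other 8 promoters held these letters. CAAAACA was found once each in Cish, Igf1 and Igfbp1 and in 5.46% of all windows. A match describes the sequence and does not show that a factor binds there.

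Values are given as log2 intensity, and a change is a difference of log2 values, with its standard error (SE) from the fit. A change passed where the adjusted p of limma, a linear model fitted to all genes, was under 0.05. Blank cells, left missing, numbered 4924 to 6060 per array in liver and 1021 to 1920 in spleen. The liver array of rat 2003 (drug, no wood) stood apart: its mean r with the rest of the livers was 0.847, where no other liver was below 0.906. In spleen, rats 1001, 1003 and 1005 (all vehicle rats without wood) and 2005 (drug, no wood) had 1778, 1908, 1920 and 1798 blanks, and the other 8 had at most 1183. Albumin stood at 13.13 to 13.50 in liver and at 4.88 to 9.12 in spleen. The B cell gene Cd79b stood at 5.39 to 12.18 in spleen and reached at most 5.13 in liver. The labels name separate animals as replicates.

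In whole spleen, transcripts of the local growth factor, its hormone receptor and the feedback genes were each higher under the drug. Igf1 and Ghr rose by a factor of 2.63 and 2.64, Socs2 by 2.05 and Cish by 1.47, and the binding proteins Igfbp3 and Igfbp4 by 1.96 and 1.93. Igfbp2 was the gene that fell, and Stat5b and Igfbp1 did not pass. Of the 9 genes that could be tested, 6 were higher and 1 lower between 6 drug and 6 vehicle rats, with a median change of 0.95, while over all genes the median was −0.02. This organ responded widely: 7485 of 13614 tested genes passed (55%), 26.9% higher and 28.1% lower.

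**Figure D1:**
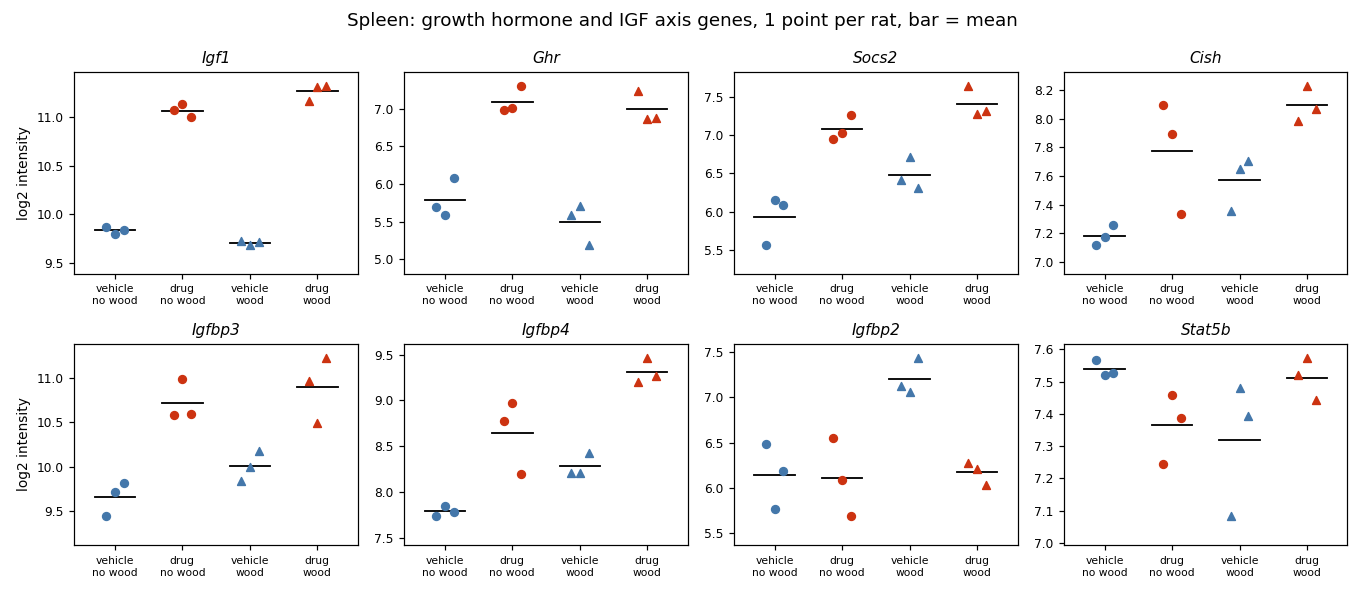
Spleen log2 intensity (vertical axes) of 8 genes in the 4 groups (horizontal axes), with 1 point per rat, circles without wood, triangles with wood, blue vehicle, red cyclophosphamide, and bars at the mean. For Igf1 the 6 drug rats lie at 10.995 to 11.32, all above the vehicle rats at 9.68 to 9.87, while Igfbp2 is high only in the 3 vehicle rats with wood.

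Igf1 in spleen was at 9.87, 9.80 and 9.84 in vehicle rats without wood and at 9.72, 9.68 and 9.71 in those with wood. Under the drug it was at 11.07, 11.13 and 10.995 without wood and at 11.16, 11.31 and 11.32 with wood. The vehicle and drug rats did not overlap, and the spread within a group was small against the gap. The rise was 1.40 ± 0.05 (SE; limma adjusted p = 1.68e-07). Within a housing, 6 members rose and 0 fell without wood, where 45.1% of genes passed, and 6 rose and 1 fell with wood, where 38.4% passed. For Igf1 these rises were 1.23 and 1.56. Over both housings the other 2 probe sets of Igf1 rose too, by 1.19 and 0.77. The weaker of them rose by 1.25 with wood and did not pass without wood, at 0.29 ± 0.20 (adjusted p = 0.286), where drug and vehicle rats overlapped.

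Ghr, the hormone's receptor, was at 5.70, 5.58 and 6.08 in vehicle rats without wood and at 5.59, 5.70 and 5.19 with wood. Drug rats were at 6.98, 7.0006 and 7.29 without and at 7.23, 6.86 and 6.88 with wood. Every drug rat was above every vehicle rat. The rise of 1.40 ± 0.13 (adjusted p = 1.26e-05) was 1.42 by its other probe set. Stat5b, the transcription factor downstream, was at 7.08 to 7.57 in vehicle and 7.25 to 7.57 in drug rats. Its change was 0.01 ± 0.08 (adjusted p = 0.921), with a 95% interval from −0.16 to 0.18.

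The feedback gene Socs2, a ubiquitin ligase adaptor for the growth hormone receptor, was at 5.57, 6.15 and 6.09 in vehicle rats without wood and at 6.41, 6.71 and 6.31 with wood. In drug rats it was at 6.94, 7.03 and 7.27 without and at 7.64, 7.27 and 7.31 with wood. The 2 treatments did not overlap, and the rise was 1.04 ± 0.13 (adjusted p = 8.58e-05). Cish, a related inhibitor of cytokine receptors, was at 7.12, 7.17 and 7.25 in vehicle rats without wood and at 7.35, 7.65 and 7.70 with wood. Drug rats were at 8.09, 7.90 and 7.34 without and at 7.99, 8.23 and 8.07 with wood. Here the treatments overlapped through rat 2005, at 7.34, one of the arrays with many blanks. The rise was 0.56 ± 0.13 (adjusted p = 0.00386), and the other probe set of Cish, at 0.39 ± 0.17, did not pass over all probe sets (adjusted p = 0.0904). Within wood housing the adjusted p of Cish was 0.0412, and it passed in 2 of 12 refits without 1 rat, reaching 0.138 without 3001. Without wood it passed in 8 of 12, and not without 1001, 1003, 2001 or 2003.

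Among the binding proteins, Igfbp3, the main carrier of circulating IGF, was at 9.45, 9.71 and 9.82 in spleens of vehicle rats without wood and at 9.84, 9.998 and 10.18 with wood. Under the drug it was at 10.59, 10.98 and 10.59 without and at 10.96, 10.49 and 11.22 with wood, with no overlap between treatments. The rise was 0.97 ± 0.14 (adjusted p = 0.000218), and 0.87 by the second probe set. Igfbp4 was at 7.73, 7.85 and 7.78 in vehicle rats without wood and at 8.20, 8.21 and 8.42 with wood. It was at 8.78, 8.97 and 8.20 in drug rats without and at 9.21, 9.47 and 9.27 with wood, and only rat 2005, at 8.20, reached into the vehicle range. The rise was 0.95 ± 0.12 (adjusted p = 0.000123). A separation of all 6 drug rats above all 6 vehicle rats, seen for Igf1, Ghr, Socs2 and Igfbp3, held for 16.1% of the 12837 genes with a value on every spleen array.

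Igfbp2 followed another pattern. Vehicle rats with wood were at 7.13, 7.06 and 7.44, above the other 9 rats, which lay between 5.69 and 6.55. The drug change was accordingly −1.03 ± 0.23 with wood (adjusted p = 0.00583) and −0.04 ± 0.23 without (adjusted p = 0.905), and −0.54 ± 0.16 over both housings (adjusted p = 0.0187). The difference of the drug change between housings was −0.996 ± 0.33 and did not pass (adjusted p = 0.242). Igfbp1 was near the lower end of the scale in spleen, at 1.43 to 3.53 with 4 arrays blank, and its change of −0.70 ± 0.39 did not pass (adjusted p = 0.183). Igfals was blank on 10 of 12 spleen arrays and was not tested there.

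The blanks of the spleen arrays coincide in part with the groups. All 6 arrays of rats with wood had few blanks, and among them Igf1 (1.56), Ghr (1.49), Igfbp4 (1.03), Socs2 (0.93), Igfbp3 (0.89) and Cish (0.52) rose and Igfbp2 (−1.03) fell in the fit of all 4 groups. Among the arrays with many blanks only rat 2005 received the drug, so no test was possible within them. With this division as a batch term, 7 members passed over both housings, while without wood Igfbp4 was at 0.41 (adjusted p = 0.0609) and Cish at 0.15 (adjusted p = 0.522). Only the drug group without wood holds both kinds of array. The batch term is therefore set by rat 2005 against rats 2001 and 2003, and resting on 1 array it cannot settle the part of the blanks.

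Other genes of the pathway were read from lists chosen with earlier results of these data known. Beside the counts stands the share over all 13614 tested genes in spleen, 26.9% higher and 28.1% lower. Of 15 tested genes of growth hormone signal transduction, 6 were higher and 4 lower in spleen (median 0.33). Jak2, the kinase on the receptor, rose by 0.65 ± 0.10 and the suppressor Socs6 by 0.59 ± 0.07. The phosphatase Ptpn6, abundant in blood cells, fell by 0.64 ± 0.08, and Ptpn1 rose by 0.46 ± 0.06. The mean of all probe sets of Ptpn1 gave 0.20, which did not pass (adjusted p = 0.0716). Of 11 IGF ligand, receptor and adaptor genes, 6 were higher and 0 lower (median 0.35). The adaptor Shc1 rose by 0.35 ± 0.06, the RNA-binding protein Igf2bp3 by 1.22 ± 0.30, the insulin receptor Insr by 0.63 ± 0.16 and the IGF receptor Igf1r by 0.47 ± 0.13. With the blanks as a batch term Igf1r was at 0.24 (adjusted p = 0.0983).

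For the further lists too, the share over all genes was 26.9% higher and 28.1% lower. Of 12 other binding proteins and proteases that act on them, 8 were higher and 0 lower (median 0.78). The matrix protease Mmp2 rose by 2.09 ± 0.09, the protease Adamts1 by 1.18 ± 0.09, Htra1 by 0.86 ± 0.05 and Igfbp7, a binding protein of vessel walls, by 0.70 ± 0.06. Of 9 insulin and FOXO1-responsive genes 4 were higher and 4 lower (median −0.20). The kinase Pdk4, which spares glucose, rose by 1.46 ± 0.29 and the lipogenic regulator Srebf1 by 0.60 ± 0.08, and Foxo1 and Sesn3 fell by 1.15 ± 0.13 and 0.67 ± 0.10. Foxo1 turned to 0.06 with the mean of its probe sets (adjusted p = 0.842). Of 7 hepatic factors under growth hormone control 2 were higher, Cebpb by 0.95 ± 0.16 and Cux2 by 0.44 ± 0.17 (adjusted p = 0.048). Cux2 passed in 1 of 12 refits without 1 rat (adjusted p up to 0.107), and missed the threshold with the mean of probe sets, a robust trend or the blanks as a batch term (adjusted p = 0.0515, 0.0548 and 0.165). Of 13 growth hormone-responsive liver effectors 1 was higher and 1 lower, Egfr at 0.52 ± 0.09 and Hsd3b5 at −0.61 ± 0.07. The level of Hsd3b5 was low in spleen, at 5.843 to 6.795, against 11.71 to 12.4 in liver. Egfr was at −0.04 with the mean of its probe sets.

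Markers of cell types moved in the same spleens, where 26.9% of all tested genes were higher and 28.1% lower. Of 10 fibroblast markers 6 were higher and 1 lower (median 0.92), of 5 endothelial markers 5 and 0 (0.93), of 6 macrophage markers 5 and 0 (0.78), and the 3 B cell and 4 erythroid markers were all lower (−5.10 and −6.27). The fibroblast marker Pdgfrb, at 1.14, was at 0.22 with the mean of its probe sets, which did not pass (limma adjusted p = 0.415). Summed over the list, fibroblast marker intensity was 2200 to 2550 in vehicle and 4600 to 5120 in drug rats, with no marker blank throughout. The endothelial sum was 3830 to 5260 against 6820 to 8710, and the macrophage sum 10300 to 12900 against 19000 to 21800. The B cell sum was 9290 to 12200 against 180 to 580. T cell markers went both ways, with Cd4 at 1.16 and Cd5 at −0.53, and their sum was 2780 to 4100 against 2470 to 4140. The hepatocyte sum was 308 to 837 against 222 to 684, and 0 of 6 tested hepatocyte markers passed (0 unadjusted). The part of these shifts in the rise of Igf1, Ghr and the binding proteins was not tested, and in whole spleen fewer cells of a type and less RNA per cell cannot be told apart. The pancreas sum was 312 to 1010 in vehicle rats (median 401) and 541 to 15700 in drug rats (median 739). The pancreas gene Prss1 reached 11.61 in spleens without wood and at most 6.618 in those with wood, and pancreas tissue in a sample was not tested.

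**Figure D2:**
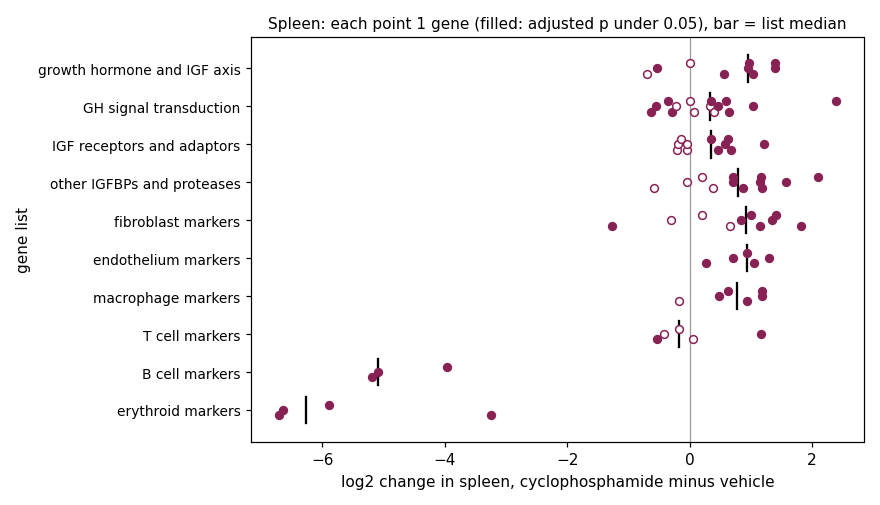
Log2 change in spleen between cyclophosphamide and vehicle (horizontal axis) for each gene of 10 lists (vertical axis), with filled points past an adjusted p of 0.05, open points not, and bars at the list median. The growth hormone and IGF axis has a median of 0.95, beside 0.92 for fibroblast and 0.93 for endothelial markers, and B cell and erythroid markers lie far to the left.

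Over the 12 spleen arrays the genes most like Igf1 were Tst, Kazald1 and Fstl1, with Pearson r of 0.991, 0.991 and 0.991 (Spearman 0.874, 0.881 and 0.881) among 12836 genes. All 12 points share the division into drug and vehicle rats, and within groups r was 0.566, 0.608 and 0.688. In liver the genes most like Igf1 were Etnk1, Ankrd44 and Sesn2, with r of 0.853, 0.851 and 0.820 (Spearman 0.797, 0.853 and 0.734) among 10798 genes.

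In liver, where circulating IGF-1 is made, Igf1 was high in every group and its drug change did not pass. Of the 10 genes 0 passed (limma), and Cish, Igfals and Socs2 had an unadjusted p under 0.05, with a median of 0.01 beside −0.02 over all genes. Of 12683 tested genes 0.812% passed in this contrast, and 14.3% had an unadjusted p under 0.05. Within a housing 0 members passed as well, where 0.15% of genes passed without wood (1 member unadjusted) and 0.0473% with wood (2 members unadjusted). Cish with wood was at −2.001 ± 0.47 (adjusted p = 0.243), and without wood at −0.08 ± 0.47 (adjusted p = 0.962).

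Liver Igf1 was at 12.94, 12.95 and 13.11 in vehicle rats without wood, at 12.89, 12.70 and 12.98 with wood, at 12.80, 12.94 and 12.87 under the drug without wood and at 12.79, 13.05 and 12.81 with wood. The groups overlapped, and the change of −0.05 ± 0.08 (adjusted p = 0.821) had a 95% interval from −0.24 to 0.13. These values lie near the top of the scale, where the highest probe set of an array stood at 13.74 to 13.96 and 0.261% to 0.586% of probe sets were above Igf1, so a change may be compressed. The other probe sets of Igf1, at 12.49 to 12.998 and at 11.58 to 12.39, had changes of −0.13 ± 0.09 and −0.20 ± 0.13 that did not pass. Ghr lay between 10.53 and 11.31 in all 12 rats, with a change of 0.17 ± 0.13 (interval −0.12 to 0.47). Stat5b was at 6.82 to 7.56 in vehicle and 7.22 to 8.02 in drug rats, a change of 0.32 ± 0.16 (adjusted p = 0.398). Igfbp3 was at 0.07 ± 0.16 and Igfbp4 at −0.12 ± 0.16, and the sign of Igfbp4 turned without rat 2003 (0.03).

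Igfals, the subunit that holds IGF in the circulating complex, was at 10.80, 11.11 and 11.22 in vehicle rats without wood and at 11.15, 10.53 and 11.29 with wood. Drug rats were at 10.0004, 9.69 and 10.75 without wood and at 10.55, 10.91 and 10.66 with wood. The lowest 2 values were those of drug rats 2003 and 2001, and the other values overlapped. The change of −0.59 ± 0.20 did not pass over all genes (adjusted p = 0.229), with an interval from −1.04 to −0.14, and was −0.48 without 2003.

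The liver-made binding proteins under nutritional control overlapped between all groups. Igfbp1 was at 11.33, 10.70 and 12.73 in vehicle rats without wood, at 12.23, 12.17 and 11.16 with wood, at 12.35, 12.28 and 11.01 under the drug without and at 11.50, 12.63 and 11.21 with wood. Each group held both high and low rats, and the change was 0.11 ± 0.43 (adjusted p = 0.927), with a 95% interval from −0.85 to 1.07. Igfbp2 was at 8.02, 5.92 and 6.47, at 5.70, 8.15 and 5.88, at 6.27, 7.52 and 6.13, and at 7.33, 9.11 and 9.23 in the same order of groups. The highest 2 values were those of drug rats with wood, while single vehicle rats of both housings exceeded 8. Its change was 0.91 ± 0.58 (adjusted p = 0.518). By housing it was 1.98 ± 0.82 with wood (limma adjusted p = 0.571) and −0.16 ± 0.82 without (adjusted p = 0.958). Neither passed, nor did the difference between them, 2.14 ± 1.16 (adjusted p = 0.95). Of 9 insulin and FOXO1-responsive genes 0 passed (1 unadjusted), with Pdk4 at −0.78 ± 0.27 (adjusted p = 0.23) and Foxo1 at −0.90 ± 0.43 (adjusted p = 0.39).

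**Figure D3:**
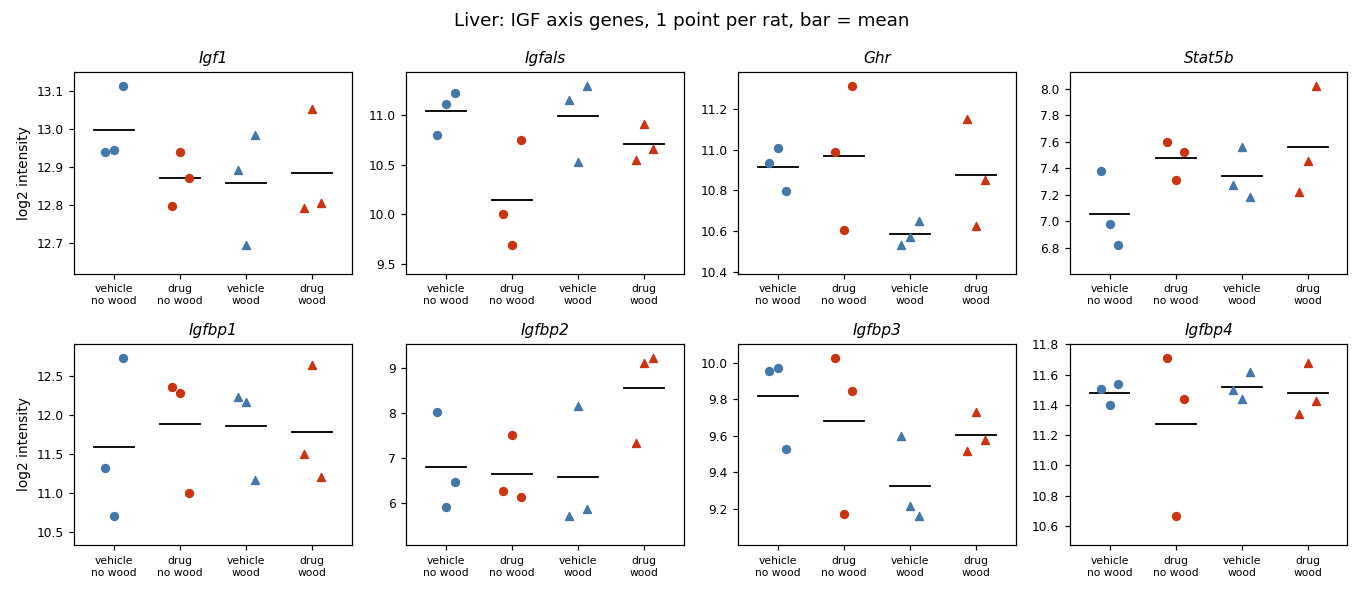
Liver log2 intensity (vertical axes) of 8 genes in the 4 groups (horizontal axes), with 1 point per rat, circles without wood, triangles with wood, blue vehicle, red cyclophosphamide, and bars at the mean. Igf1 stays between 12.70 and 13.11 in all rats, while Igfbp1 ranges from 10.70 to 12.73 among the vehicle rats without wood alone.

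Liver pathway lists showed no call. Of 15 genes of growth hormone signal transduction 0 passed under the drug (2 unadjusted), with Stat3 at 0.91 ± 0.20 (adjusted p = 0.0846) and Ptpn6 at −0.33 ± 0.08 (adjusted p = 0.11). Of 13 growth hormone-responsive effectors 0 passed (2 unadjusted), with the iron hormone gene Hamp at 3.41 ± 0.73 (adjusted p = 0.0696) and the fasting hormone Fgf21 at −2.61 ± 0.61 (adjusted p = 0.0908). None passed among 10 IGF ligand, receptor and adaptor genes (0 unadjusted), 11 other binding proteins and proteases (1 unadjusted) and 7 hepatic factors (0 unadjusted). The hepatocyte marker sum was 58500 to 65200 in vehicle and 56300 to 66500 in drug rats, and 4 of 6 macrophage markers were lower. Of these Csf1r passed in 12 of 12 refits without 1 rat, C1qa in 7, Clec4f in 4 and Adgre1 in 1, and without rat 3001 Csf1r alone of the 4 passed. The erythroid marker Alas2 had a larger change, −3.28 (limma adjusted p = 1.135e-05), and passed in 12 of 12 refits.

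Cish and Socs2 were the members with an unadjusted p under 0.05 between housings in liver, and neither passed over all genes. Cish was at 6.37, 6.15 and 6.13 in vehicle rats without wood and at 9.33, 8.92 and 7.81 in those with wood. Under the drug it was at 6.47, 5.85 and 6.08 without and at 7.56, 6.72 and 5.77 with wood. The 3 vehicle rats with wood were the highest of the 12, and the 6 rats without wood lay within 5.85 to 6.47. The wood difference in vehicle rats was 2.47 ± 0.47 and did not pass over 12683 genes (limma adjusted p = 0.452), a contrast in which 0 genes passed and 3.82% had an unadjusted p under 0.05. The second probe set gave 2.64 ± 0.57. Under the drug the wood difference of Cish was 0.55 ± 0.47, in a contrast where 0 of 10 members passed (2 unadjusted, Igfbp2 and Socs2, the latter against a single array without wood) and 7.76% of genes had an unadjusted p under 0.05. The interaction of −1.92 ± 0.66 for Cish did not pass (adjusted p = 0.95), with 5.12% of genes at an unadjusted p under 0.05.

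Socs2 was at 4.80, 5.93 and 7.28 in vehicle livers without wood and at 8.63, 7.93 and 7.52 with wood. Under the drug it was blank in 2 rats and at 3.90 in the third without wood, and at 6.48, 7.77 and 7.26 with wood. All 3 vehicle rats with wood were above the 3 without. The wood difference over both treatments was 2.65 ± 0.55 (limma adjusted p = 0.403), in which the drug group without wood rests on 1 array, and 2.03 ± 0.64 in vehicle rats, which did not pass. In this contrast over both treatments 0 of 12683 genes passed and 6.16% had an unadjusted p under 0.05. For Cish it was 1.51 ± 0.33 (adjusted p = 0.356), and the other 8 members had an unadjusted p above 0.05. Igf1 was at −0.06 ± 0.08 between housings.

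Among 7 hepatic transcription factors under growth hormone control, 0 passed between housings and 3 had an unadjusted p under 0.05. Bcl6, a repressor that growth hormone and STAT5 turn down in liver, was at 10.29, 10.28 and 10.11 in vehicle rats without wood and at 10.32, 10.44 and 10.18 in drug rats without wood. With wood it was at 8.77, 7.71 and 7.50 in vehicle and at 7.02, 9.51 and 9.77 in drug rats. Every rat with wood was below every rat without, which held for 0.13% of the 10799 genes with a value on every liver array. Its wood difference was −1.89 ± 0.44 (limma adjusted p = 0.403). Foxa2, a liver identity factor, was at 0.71 ± 0.19 (adjusted p = 0.451). Onecut1, which growth hormone induces in liver, was at 1.57 ± 0.52 (adjusted p = 0.654) and was named after its values were seen. The growth hormone-responsive effectors in liver all overlapped between housings. Of these, Hsd3b5 was at 12.12 to 12.4 without and 11.71 to 12.33 with wood, and Sult2a1 at 4.425 to 5.473 and 4.65 to 5.667. Bcl6 in spleen overlapped between housings, at 9.45 to 10.07 without and 8.91 to 9.83 with wood.

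**Figure D4:**
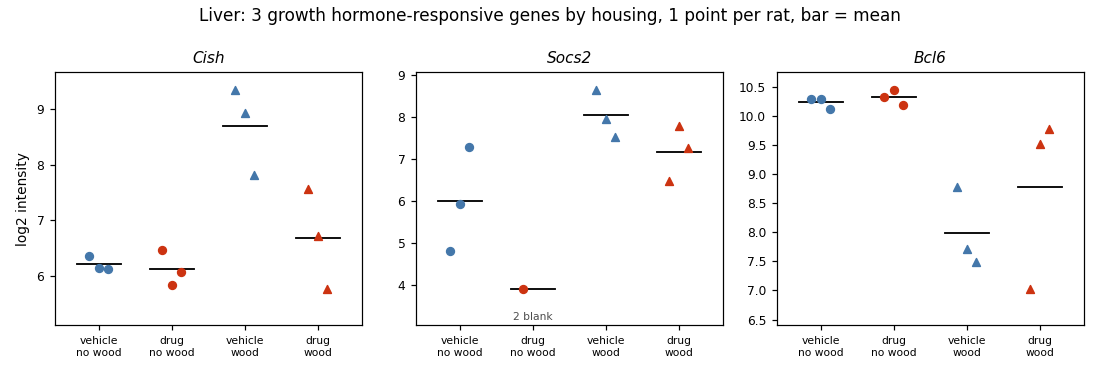
Liver log2 intensity (vertical axes) of Cish, Socs2 and Bcl6 in the 4 groups (horizontal axes), with 1 point per rat and bars at the mean. Cish is highest in the 3 vehicle rats with wood, Socs2 has 2 blank arrays in the drug group without wood, and Bcl6 is lower in all 6 rats with wood than in the 6 without.

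In spleen, 1 of 9 tested members passed between housings over both treatments. In this contrast 12.1% of 13614 genes passed, 6.05% in each direction. Igfbp4 was 0.58 ± 0.12 higher with wood (adjusted p = 0.022), and 0.13 (adjusted p = 0.843) with the blanks as a batch term, as the arrays with many blanks all belong to rats without wood. In vehicle rats 1 member passed, Igfbp2, by 1.06 ± 0.23 (adjusted p = 0.0186), where 15.1% of genes passed. Over all probe sets, 1 further probe set of Igf1 (−0.93, adjusted p = 0.018) and 1 of Ghr (−0.83, adjusted p = 0.0272) were lower with wood, while the probe sets used for these genes did not pass. With the batch term Igfbp2 was at 0.43 (adjusted p = 0.787), and it missed the threshold without rat 1003 or 3005 (adjusted p at most 0.0575). All 3 vehicle rats without wood are on the side with many blanks, so that in vehicle rats wood and blanks cannot be told apart. The batch term values of Igfbp4 and Igfbp2 only carry over how drug rat 2005 differed from drug rats 2001 and 2003, and are not corrected estimates. In drug rats 0 of 9 members passed between housings (limma; 2 unadjusted), in a contrast where 0 of 13614 genes passed and 8.62% had an unadjusted p under 0.05. For the difference of the drug change between housings 0 passed (3 unadjusted), and 0.705% of genes did. Igf1 was at 0.33 ± 0.10 (adjusted p = 0.227).

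The drug change was then compared between the organs over all 24 arrays. The signed change was higher in spleen for 6 of 9 members, in a contrast where 33.1% of 12474 genes passed and 18.4% did so in this direction. The difference, spleen minus liver, was 1.45 ± 0.09 for Igf1 (adjusted p = 1.12e-08), 1.23 ± 0.19 for Ghr, 1.07 ± 0.21 for Igfbp4 and 0.90 ± 0.22 for Igfbp3. It was 2.52 ± 0.52 for Socs2 and 1.60 ± 0.37 for Cish (adjusted p = 0.00253), whose liver changes, −1.48 ± 0.55 and −1.04 ± 0.33, were opposite in sign to those in spleen, larger in size and did not pass. The liver value of Socs2 without wood under the drug rests on 1 array, that of rat 2005, without which Socs2 could not be tested. Igfbp2 was at −1.44 ± 0.62 (adjusted p = 0.0844).

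In vehicle rats, 5 of 9 members were higher in liver than in spleen, in a contrast where 79.5% of 12474 genes passed, with 20.2% higher and 59.2% lower in liver. Ghr was 5.11 ± 0.13 higher, Igfbp4 3.47 ± 0.15, Igf1 3.16 ± 0.06 and Socs2 0.81 ± 0.33 (adjusted p = 0.032). Igfbp1 passed too, but its spleen values lie at the low end of the scale with 1 of 6 vehicle arrays blank, so the fitted 8.88 is not an exact size. The liver value of Igf1 lies near the top of the scale, so its difference may be understated. The call of Socs2 was lost in 3 of 11 refits without 1 rat, those without 1003, 1005 and 3001. It was also lost with only the groups compared (limma adjusted p = 0.0667) and with the blanks as a batch term (adjusted p = 0.0923). Cish, Igfbp2, Igfbp3 and Stat5b did not pass, with differences from −0.26 to 0.08, and for Igfbp3 the interval ran from −0.59 to 0.06.

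**Figure D5:**
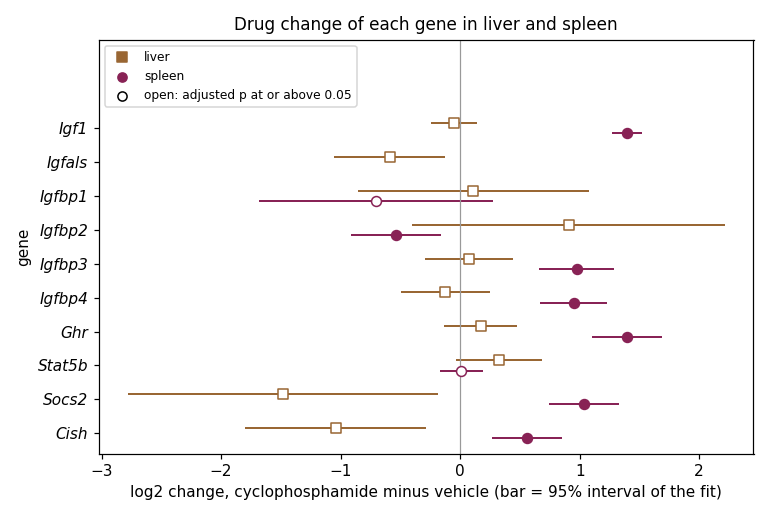
Log2 change between cyclophosphamide and vehicle (horizontal axis) of each gene (vertical axis) in liver (squares) and spleen (circles), with bars for the 95% interval of the fit and open symbols where the adjusted p is 0.05 or above. In spleen Igf1 and Ghr stand at 1.40 each, while in liver the intervals of both include 0, and Igfals has no spleen value.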

How the data were processed

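RNA of liver and spleen (5 µg per sample, per the labels' protocols) was hybridised to 24 arrays. The authors' deposited values are log10 intensities, a base inferred from their range (the middle 98% spans 2143-fold as log10 and 10.1-fold as log2). The summary and scaling method behind them was not given in the sources used here. Multiplying by 3.322 gave log2 values, which were not scaled further, and 77831 blank cells (10.5%) stayed missing. Of the probe sets, 20792 name 1 gene, 436 several and 9752 none, and 20724 matched RefSeq by gene number with 0 changes of symbol. Of several probe sets for a gene, that of highest mean log2(intensity + 16), blanks at 0, was kept, and genes with a value in every group were tested.

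Group means were fitted per organ (12 arrays) or for both (24 arrays) with limma 3.58.1 in R 4.3.3, p values adjusted by Benjamini-Hochberg over all genes of a contrast (threshold 0.05). The drug effect is the mean over housings and the wood effect the mean over treatments. SE is that of the moderated fit, with 3 rats per group limiting the precision. The fit was tested on simulated data. All members were named, with up to 4 genes per list past the threshold by p, or 2 as values where none passed, and the 3 genes most like Igf1 per organ. Members and lists were chosen with earlier results of these data known. Liver and spleen of a rat share its number in the labels. Over 10530 genes their deviations from the group means correlated at −0.0584 to 0.17, above those with other rats of the group in 11 of 12 rats.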

Additional observations from a re-analysis of the deposited data

Results flagged for a closer look

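The drug change differed between the organs by a test of that difference (limma, adjusted p under 0.05) for 6 genes. The difference, spleen minus liver, was 1.45 for Igf1, 0.90 for Igfbp3, 1.07 for Igfbp4, 1.23 for Ghr, 2.52 for Socs2 and 1.60 for Cish (log2). Liver Socs2 in the drug group without wood rests on 1 array, and liver Igf1 lies near the top of the scale. The liver drug change of Cish was −0.08 ± 0.47 without wood and −2.001 ± 0.47 with wood, and neither passed. Groups of 3 rats were too small for a test of single outlying samples.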

How the results depend on the processing

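Counts of members past the threshold stayed within 1.5 times the reported count in 147 of 164 other settings, and in 186 of 192 refits without 1 rat. In spleen under the drug, and there within wood housing, 7 passed as reported and 4 when only genes at or above the median level were tested, which left 6 members. Between housings in spleen, 1 passed as reported, 3 with quantile normalisation, with median centring, with an offset and with array weights, 2 with the mean of probe sets and with a robust trend, and 0 with the blanks as a batch term. In vehicle rats alone it was 1, and 2 with quantile normalisation or only the groups compared, 3 with the mean of probe sets or array weights, and 0 with genes at or above the median level or the batch term. The spleen interaction went from 0 to 1 with array weights, and the organ difference from 5 to 3 with at least 2 values per group. Without 1 rat in turn, the counts were 7 to 7 (spleen drug), 5 to 6 (without wood), 6 to 7 (with wood), 1 to 3 (wood), 0 to 3 (wood in vehicle), 0 to 1 (interaction), 4 to 6 (organ difference), 5 to 7 (drug change by organ) and 0 to 0 in liver. The mean of all probe sets reversed the drug change of liver Igfbp3 (−0.00252) and spleen Egfr (−0.0437) and Foxo1 (0.0636). Leaving out 1 rat turned liver Igfbp1 (−0.109 to 0.397), Igfbp3 (−0.0127 to 0.201) and Igfbp4 (−0.234 to 0.0285) and spleen Stat5b (−0.0488 to 0.0504), none of which passed. With the rat as a block (the pairing of organs), the organ difference kept 5 calls and the drug change by organ 6, with Igf1 at 1.45 (adjusted p = 3.57e-05), and no call changed. The cause of these shifts was not tested, and the batch term is set only by rat 2005 against rats 2001 and 2003. The 3 rats per group and low signal limit Igfbp1 and Igfals in spleen and Socs2 in liver.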
